A study of Rattus norvegicus with 19 samples.

Results

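Depolarization with potassium chloride (KCl) was compared with vehicle in primary striatal neurons of the rat, the 7 striatal total RNA-seq libraries of a series of 19 that also covers cortex and hippocampus. Cultures were prepared from Sprague-Dawley tissue at embryonic day 18, kept in culture until day 11, and exposed to KCl or vehicle over 1 h. Vehicle (neurobasal medium) is represented by 4 striatal libraries, replicates 2, 4, 6 and 8, and KCl by 3, replicates 1, 5 and 7. The study's supplementary methods instead list 3 vehicle and 4 KCl files for striatum, and the labels were followed. The sample labels give the final KCl concentration as 25 mM, whereas it is 10 mM in the series text and in the description of these cultures by the study, and the files cannot settle which was used. The measured units are transcriptionally active putative enhancers (TAPEs), intergenic stretches of open chromatin with transcription from both strands, which the study defined on merged libraries that include these. The deposited table lists them in pairs with genes within 1 Mb and holds 27538 of them, so TAPEs without a paired gene are absent. Values are CPKM, reads per kilobase of TAPE scaled to the reads of the library. A total of 1870 TAPEs (6.79%) had a mean of at least 0.05 CPKM over all 19 libraries and were tested. The study's methods call the libraries biological replicates, but no label names their cultures or litters, so p-values measure the spread between these libraries, which may be technical in part.

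Striatal libraries held 49635834 to 57951417 reads, of which a tested TAPE received a median of 77 reads over all 7, and 4957 TAPEs had no striatal read at all. TAPEs took 0.110% to 0.116% of a vehicle library and 0.0983% to 0.102% of a KCl library, with no overlap between treatments (exact permutation test, two-sided, p = 0.0286, the smallest that 35 arrangements can give). The median tested TAPE was accordingly 0.17 lower after KCl on the log2 scale, and changes are given as measured unless said to be after centring, in which each library's median tested TAPE was subtracted first. A cortical vehicle library (replicate 3) carries a striatal tissue label although its title places it in cortex. It was used as cortex, enters no striatal value, and tests that use cortex are given with and without it. The striatal label was checked against its markers. Of 15 medium spiny neuron genes with a profile over all 19 libraries, 12 were higher in every striatal vehicle library than in every vehicle library of the other regions, and Arpp21, Chrm4 and Rgs14 were not. All 4 genes of GABA neurons were higher in the same way. The cortical library with the striatal tissue label was in this comparison, and lay below every striatal vehicle library at these genes. None of 6 cortical excitatory, 6 astrocyte or 7 oligodendrocyte lineage markers had its highest regional mean in striatum.

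Active enhancers are themselves transcribed, mostly in both directions, and the resulting enhancer RNAs (eRNAs) are short lived and scarce compared with mRNA. Depolarization opens voltage-gated calcium channels, and calcium signalling to the nucleus through CREB and other preexisting factors switches on immediate early genes such as Fos, Fosb, Egr1, Nr4a1 and Arc without new protein synthesis. The principal cells of the striatum are medium spiny neurons, GABA-releasing projection neurons that fall into a class with D1 dopamine receptors, dynorphin and tachykinin and a class with D2 receptors and enkephalin.

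The sequences that tie the strongest responses to named elements come from the study's own reagents for Fos and Nr4a1, which lie in 4 TAPEs that were higher in every KCl library. The study's Fosb guides lie in a TAPE whose treatments overlapped and are not shown. The CRISPR guide for the first Fos enhancer is placed in chr6:109261263-109264039 (Rn6), that for the second in chr6:109280836-109283088, that for the third in chr6:109311940-109315695, and a guide for the Nr4a1 enhancer in chr7:142890056-142891915. They are shown because each marks the TAPE whose transcription is described next.
Fos enhancer 1 guide: gaggagactaactgagcagc
Fos enhancer 2 guide: gcctgttgtcatgactgccg
Fos enhancer 3 guide: gggtgggggcctctgacggg
Nr4a1 enhancer guide: gtgtgtggaaacttgtagcg
For the first and the third of the Fos enhancers the study also designed 150-base eRNA inserts, based on conserved parts of these transcribed enhancers. Their positions within the TAPEs were not read here. Capitals in the first mark the stretches matched by the primers used to amplify that eRNA, which span bases 1 to 148 of the insert. Neither primer for the third eRNA matches its insert.
Fos eRNA1: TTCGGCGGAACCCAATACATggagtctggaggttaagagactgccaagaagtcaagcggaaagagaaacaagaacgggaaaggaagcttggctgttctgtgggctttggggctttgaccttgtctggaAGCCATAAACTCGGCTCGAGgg
Fos eRNA3: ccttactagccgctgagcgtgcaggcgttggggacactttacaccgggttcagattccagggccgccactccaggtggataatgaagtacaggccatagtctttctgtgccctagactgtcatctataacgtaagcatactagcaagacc

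KCl changed 23 striatal TAPEs at an adjusted p below 0.05 (limma, Benjamini-Hochberg over the 1870 tested). Of these, 15 rose (0.802% of those tested) and 8 fell (0.428%), and in each the 3 KCl libraries did not overlap the 4 vehicle libraries. At an unadjusted p below 0.05 there were 282 TAPEs, 62 higher and 220 lower. Fitted changes of the rising TAPEs ran from 1.09 to 1.97 on the log2(CPKM + 0.05) scale, on which the change of a weakly transcribed TAPE appears smaller than it is, and those of the falling TAPEs from -1.46 to -0.74. The count depends on a few libraries: without a vehicle replicate, 8 (replicate 2), 3 (replicate 4), 7 (replicate 6) or 5 (replicate 8) TAPEs were called, and without KCl replicate 1, 5 or 7 there were 6, 4 and 0, the last with 237 at an unadjusted p below 0.05. Of these 7 fits, 6 called the first Fos, the Nr4a1 and the Mn1 TAPE, 4 the third Fos TAPE and that near Sik1, and at most 2 any other. The count also depends on the filter: with the mean of 0.05 CPKM taken over the 7 striatal libraries, 63 of 2120 TAPEs were called, 29 higher and 34 lower, among them all 23.

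**Figure D1:**
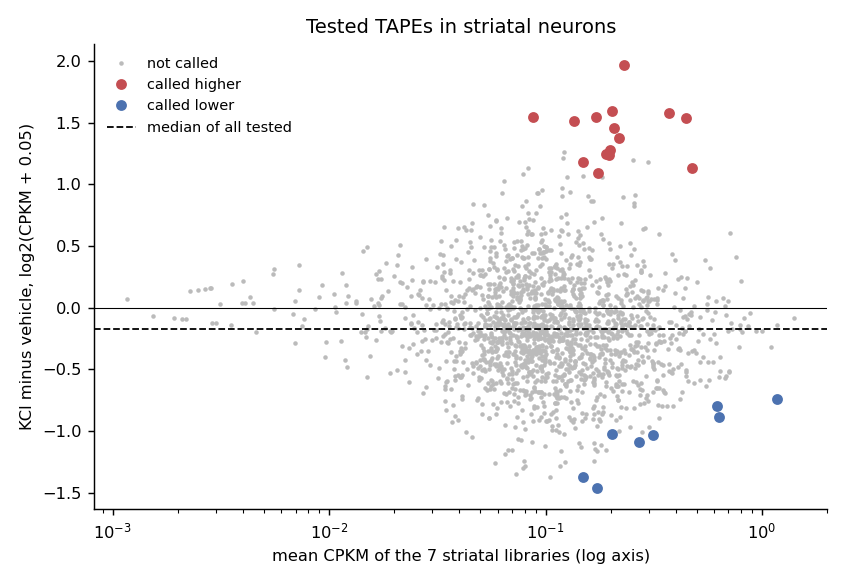
Change after KCl (vertical axis, log2(CPKM + 0.05), KCl minus vehicle) against the mean CPKM of the 7 striatal libraries (horizontal log axis) for the tested TAPEs, 3 without striatal reads left out. The 15 rising TAPEs lie above 1 and the 8 falling ones below -0.7, while the dashed median of all tested TAPEs sits at -0.17.

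The leading response lay around Fos, the immediate early gene for a subunit of the AP-1 transcription factor. Its first enhancer, 37.8 kb upstream of the gene's start, held 0.222, 0.152, 0.168 and 0.168 CPKM in the 4 vehicle libraries and 0.564, 0.684 and 0.635 in the 3 KCl libraries. The means were 0.177 ± 0.0305 (SD, n = 4) and 0.628 ± 0.0601 (SD, n = 3), a ratio of 3.54, and the log2 change was 1.58 ± 0.19 (SE, adjusted p = 0.00182), the smallest p of all tested TAPEs. Every KCl library thus stood well above the highest vehicle library.

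The third Fos enhancer lies 13.4 kb from the start, past the end of the gene. Vehicle libraries gave 0.0469, 0.0751, 0.119 and 0.106 CPKM there and KCl libraries 0.297, 0.398 and 0.378, a ratio of means of 4.12 (log2 change 1.60 ± 0.26, adjusted p = 0.0106). The second enhancer, 18.5 kb upstream, moved the same way, with 0.117, 0.0984, 0.146 and 0.0767 CPKM in vehicle and 0.26, 0.254 and 0.323 in KCl. Its groups did not overlap, but its log2 change of 1.06 ± 0.24 missed the threshold as measured (adjusted p = 0.0513) and passed it after centring (1.20, adjusted p = 0.0182). Fos itself was higher in every KCl library than in every vehicle library, and its deposited correlation with the 3 TAPEs across the striatal libraries was 0.98, 0.95 and 0.969 from the first to the third, as a description over 7 points that share the treatment.

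The largest fitted log2 change was at the Nr4a1 enhancer, 14.8 kb upstream of the gene for an orphan nuclear receptor that is another immediate early factor. Vehicle libraries held 0.0852, 0.065, 0.0649 and 0.0743 CPKM and KCl libraries 0.406, 0.317 and 0.598. The log2 change was 1.97 ± 0.25 (adjusted p = 0.00192), a ratio of means of 6.09. The vehicle libraries lay close together, and the 3 KCl libraries were all higher but spread more widely (SD 0.143 against 0.00961). A TAPE 24.8 kb upstream of Nr4a1 (chr7:142879678-142882218), 11.2 kb from Grasp, held 0.229, 0.0793, 0.149 and 0.272 CPKM in vehicle and 0.505, 0.457 and 0.385 in KCl and was called only after centring (log2 change 1.32, adjusted p = 0.0119; 1.18 ± 0.28 and 0.0663 as measured). Between them, at 20.2 kb, a TAPE changed by 0.69 ± 0.35 with overlapping groups (adjusted p = 0.369).

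**Figure D2:**
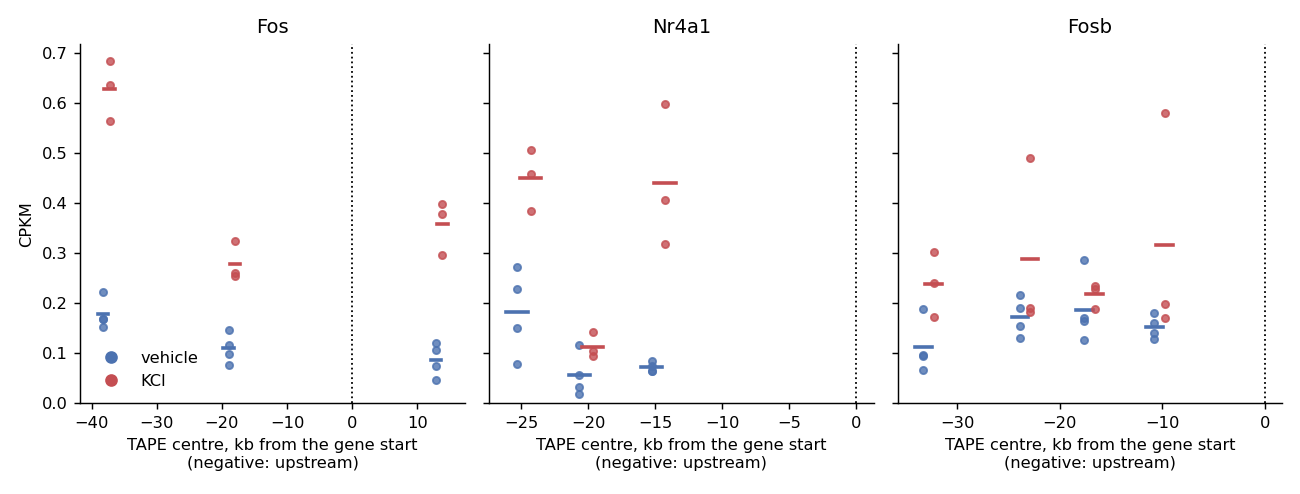
CPKM of the tested TAPEs within 100 kb of the starts of Fos, Nr4a1 and Fosb (vertical axis), by distance of the TAPE's centre from the gene's start (horizontal axis, negative upstream), with vehicle points shifted left and KCl points shifted right and bars at the means. KCl libraries stand clear of vehicle at all 3 Fos TAPEs and at 2 of the 3 Nr4a1 TAPEs, while at Fosb a single KCl library reaches 0.58 at 10.3 kb.

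Junb, another AP-1 subunit, has a rising TAPE 7.13 kb upstream (chr19:26100689-26103090), although the start of Hook2, a microtubule-linking protein, is nearer at 4.95 kb. Vehicle libraries held 0.132, 0.126, 0.0934 and 0.0719 CPKM and KCl libraries 0.299, 0.246 and 0.415 (log2 change 1.24 ± 0.25, adjusted p = 0.0305). Junb followed the TAPE (r = 0.903 over the 7 libraries) and Hook2 ran against it (r = -0.91).

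Sik1, which encodes a kinase that restrains CREB coactivators, starts 57.1 kb from the TAPE at chr20:10622072-10624253, with the uncharacterised LOC102554931 nearer at 29.3 kb. The TAPE held 0.323, 0.277, 0.269 and 0.317 CPKM in vehicle and 0.848, 0.608 and 0.685 in KCl (log2 change 1.13 ± 0.17, adjusted p = 0.00776). Sik1 correlated with it at 0.951 and LOC102554931 at -0.474.

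Mn1, a transcriptional cofactor gene, is the nearest gene to the TAPE at chr12:50950307-50953159, although its start is 298 kb away. The values were 0.265, 0.275, 0.163 and 0.194 CPKM in vehicle and 0.847, 0.588 and 0.799 in KCl (log2 change 1.54 ± 0.21, adjusted p = 0.00256). Mn1 was higher in every KCl library and correlated with the TAPE at 0.957.

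A pair of TAPEs 4.30 kb apart on chromosome 17 rose together. At chr17:88774131-88776236 vehicle libraries held 0.1, 0.0957, 0.131 and 0.107 CPKM and KCl libraries 0.475, 0.341 and 0.282 (log2 change 1.37 ± 0.23, adjusted p = 0.0145). At chr17:88778236-88780735 they held 0.0563, 0.129, 0.138 and 0.0691 against 0.461, 0.295 and 0.299 (1.46 ± 0.28, adjusted p = 0.0223). KCl replicate 1 was the highest library at both. The nearest start is that of Myo3a, a class III myosin gene, at 189 and 184 kb, and the gene that followed both TAPEs most closely was Gad2, for an enzyme of GABA synthesis, 396 and 392 kb away with r = 0.968 and 0.935. Myo3a and Gad2 were each higher in all KCl libraries.

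The eighth smallest p among the rising TAPEs belonged to chr9:65514203-65516490, 19.4 kb upstream of Cflar, a regulator of death receptor signalling. Vehicle libraries held 0.0769, 0.106, 0.136 and 0.0906 CPKM and KCl libraries 0.371, 0.29 and 0.268 (log2 change 1.24 ± 0.24, adjusted p = 0.0223). Cflar (r = 0.946) and Fam126b, 73.1 kb away (r = 0.975), were both higher in every KCl library, while Ndufb3, 36.9 kb away and a respiratory chain subunit, was lower in every one.

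The other 6 rising TAPEs had log2 changes from 1.09 to 1.55. The one at chr7:28369570-28371560 lies 41.6 kb upstream of Igf1, the growth factor gene, which correlated with it at 0.893. That at chr3:111165051-111166474 lies 5.56 kb from the start of Chac1, a glutathione-degrading enzyme, and 1626 bases past the gene's end. Chac1 and Igf1 were each higher in all KCl libraries. For the remaining ones the nearest gene overlapped between treatments: Dtwd2 for chr18:43957439-43959410, Dhx40 for chr10:74153921-74156300, LOC303566 for chr10:90188422-90190566 and Cdkn2aipnl for chr10:37399267-37401444. Their best paired genes, those with the highest deposited striatal correlation within 1 Mb, were in turn Dmxl1 (510 kb), Ypel2 (143 kb), Tmub2 (40.9 kb) and Sec24a (184 kb). A best paired gene is picked from up to 61 genes over 7 libraries that share the treatment. Such a choice favours a high correlation and does not mark a local partner.

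**Figure D3:**
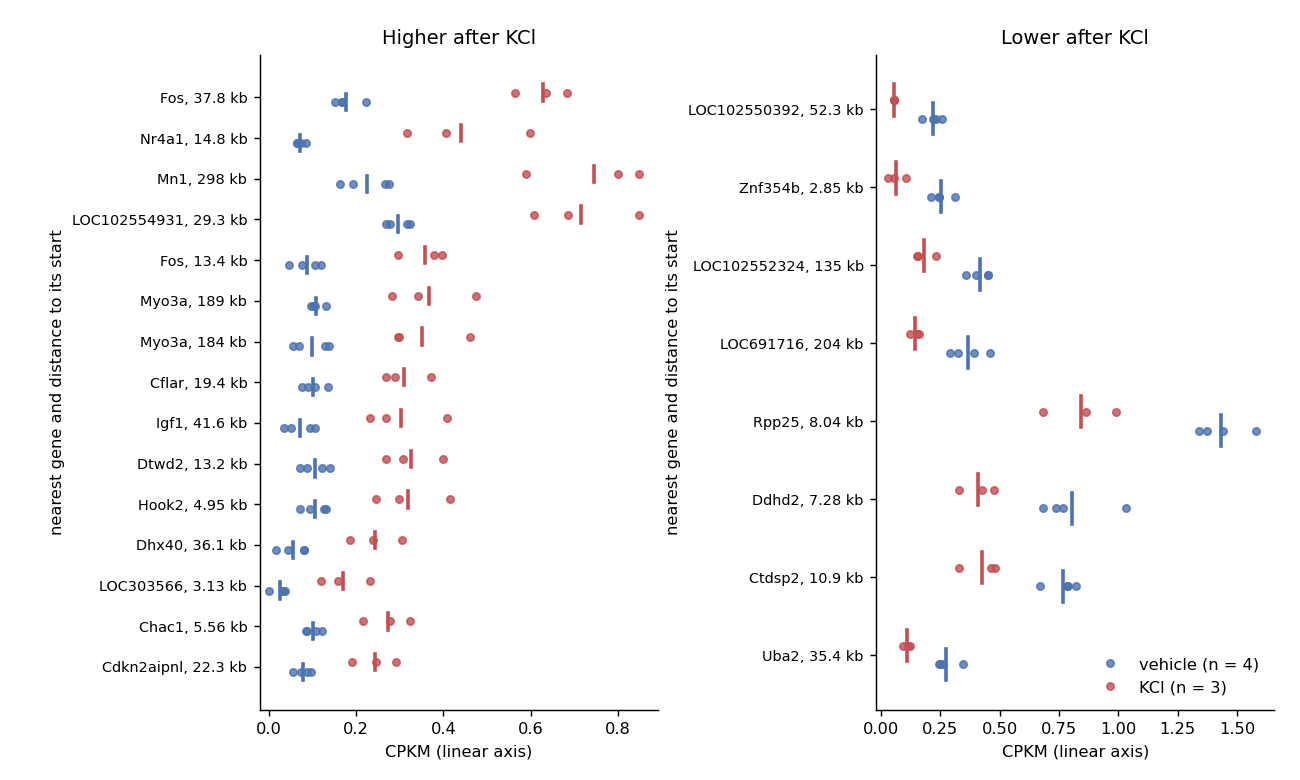
CPKM in each striatal library (horizontal linear axes) for the 15 rising and 8 falling TAPEs, named by nearest gene and distance to its start, with vehicle (n = 4) and KCl (n = 3) points and bars at the group means. No TAPE has overlapping groups, and the rising TAPEs all have vehicle means below 0.3 CPKM.

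The strongest fitted fall was at chr10:36421794-36423763, 2.85 kb upstream of Znf354b in a zinc finger gene cluster, with 0.313, 0.245, 0.245 and 0.21 CPKM in vehicle and 0.105, 0.0562 and 0.0292 in KCl (log2 change -1.46 ± 0.28, adjusted p = 0.0223). Znf354b, Zfp2 (20.2 kb) and Zfp879 (86.2 kb) were each lower in every KCl library. At chr3:9160120-9162937, vehicle libraries held 0.231, 0.257, 0.22 and 0.172 CPKM and KCl libraries 0.0536, 0.0523 and 0.0544 (-1.37 ± 0.25, adjusted p = 0.0223). Its nearest gene is LOC102550392 at 52.3 kb and its best paired gene Coq4, of coenzyme Q synthesis, 812 kb away.

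At chr2:144941790-144943747, 135 kb from LOC102552324 and best paired with Ccdc169 at 391 kb, vehicle libraries held 0.36, 0.401, 0.449 and 0.45 CPKM and KCl libraries 0.231, 0.151 and 0.157 (-1.03 ± 0.20, adjusted p = 0.0223). At chr1:195890484-195892178, 204 kb from LOC691716 and best paired with Kdm8, a JmjC-domain hydroxylase gene at 948 kb, they held 0.291, 0.392, 0.326 and 0.459 against 0.123, 0.152 and 0.158 (-1.09 ± 0.21, adjusted p = 0.0223). These 4 TAPEs were still called after centring (adjusted p from 0.0183 to 0.038).

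The other 4 falling TAPEs were not called after centring (adjusted p from 0.054 to 0.0905). The most transcribed of the 23 was chr8:62274612-62275990, 8.04 kb upstream of Rpp25, a ribonuclease P subunit gene, with 1.44, 1.37, 1.34 and 1.58 CPKM in vehicle and 0.863, 0.989 and 0.681 in KCl (-0.74 ± 0.15, adjusted p = 0.0305). Its best paired gene was Arid3b, 342 kb away. At chr16:71082118-71083404, 7.28 kb upstream of Ddhd2, a phospholipase gene that was itself lower in every KCl library, the values were 0.766, 1.03, 0.684 and 0.738 against 0.425, 0.33 and 0.477 (-0.89 ± 0.18, adjusted p = 0.0305), and the best paired gene was Fnta at 248 kb. Near Ctdsp2 (chr7:70271182-70274492, 10.9 kb, best paired with the tRNA methyltransferase gene Mettl1 at 55.6 kb) they were 0.67, 0.821, 0.782 and 0.788 against 0.462, 0.479 and 0.33 (-0.80 ± 0.17, adjusted p = 0.0366). Near Uba2 (chr1:89998442-90001839, 35.4 kb, best paired with Lin37 at 986 kb) they were 0.249, 0.261, 0.244 and 0.346 against 0.122, 0.0922 and 0.113 (-1.02 ± 0.22, adjusted p = 0.0396).

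Subtracting each library's median log2 value raised every change by 0.14 and shifted the balance toward rising TAPEs. After centring 19 were higher (1.02%) and 4 lower (0.214%). All 15 rising TAPEs and 4 of the 8 falling ones were retained, and 4 TAPEs were called only then, each with no overlap between groups. Besides the second Fos enhancer and the TAPE between Grasp and Nr4a1, they were chr8:56633389-56635355, with 0.51, 0.563, 0.526 and 0.703 CPKM in vehicle and 0.893, 0.909 and 0.877 in KCl (log2 change 0.75, adjusted p = 0.0183), and chr3:83168776-83171008, 32.5 kb from the microRNA gene Mir129-2, with 0.158, 0.18, 0.224 and 0.0464 against 0.304, 0.405 and 0.455 (1.34, adjusted p = 0.0234). The first lies 62.6 kb from Zc3h12c, an RNase-like zinc finger gene whose level was higher in all KCl libraries (r = 0.954), and the second had Hsd17b12 as its best paired gene (121 kb, r = 0.91).

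Most called TAPEs of both directions were more transcribed in striatum than elsewhere without depolarization. In vehicle libraries 10 of the 15 rising and 6 of the 8 falling TAPEs were higher in striatum than in the mean of cortex and hippocampus (limma, adjusted p below 0.05), and none was lower, against 18.4% higher and 15.1% lower over all tested TAPEs. Leaving out the cortical library with the striatal tissue label gave 11 and 6. Because vehicle levels in striatum enter both measures, this is a description. The filter on low values also includes the striatal libraries, so a TAPE that is weak elsewhere can pass through them. At chr17:88774131-88776236, for example, group means in cortex and hippocampus ran from 0.0086 to 0.0272 CPKM, below the filter. Rising TAPEs had a median vehicle level of 0.1 CPKM, close to 0.107 over all tested, and falling ones 0.391, but the level in vehicle is part of the contrast that chose them. Median lengths were 2182 bases for rising, 1964 for falling and 2006 for all tested TAPEs, and a median of 29 and 36 genes was paired with them within 1 Mb against 14 overall.

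Most rising TAPEs had a nearest gene that was higher after KCl. Counted for each TAPE, the nearest gene of 9 of the 15 (60%) had all KCl libraries above all vehicle libraries and that of none had all below, against 13.3% and 20.6% of the nearest genes of all tested TAPEs. Fos and Myo3a each entered the 9 more than once, so these are not 9 distinct genes. Of the 7 falling TAPEs with a solved nearest gene, 2 had a lower gene, those near Znf354b and Ddhd2, and none a higher one. Within 100 kb, rising TAPEs had 53 distinct genes with a profile, 17 of them higher (32.1%) and 4 lower, while falling TAPEs had 38, with 1 higher and 8 lower (21.1%). Around all tested TAPEs 10% of such genes were higher and 20.1% lower, so the falling TAPEs' share of lower genes was close to that background. Around chr10:90188422-90190566, 5 of 9 genes were higher, among them Hdac5, a histone deacetylase, and Ubtf, a factor for ribosomal RNA transcription.

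Uncalled TAPEs near a called one were also counted. Within 100 kb of the rising TAPEs lay 12 of them, of which 9 had a positive and 3 a negative fitted change, with a median of 0.36 (10 and 2 after centring). Only the second Fos enhancer and the TAPE between Grasp and Nr4a1 had all KCl libraries above vehicle (3.32% of all tested TAPEs did). A pair had all KCl libraries below vehicle (9.73% of all tested), chr12:51001616-51003380 near the Mn1 TAPE (-1.13 ± 0.32, adjusted p = 0.128) and chr10:74189708-74191025 near the Dhx40 TAPE (-0.85 ± 0.27, adjusted p = 0.158). Within 100 kb of the falling TAPEs, 10 of 11 uncalled ones had a negative change, with a median of -0.35, and all 11 overlapped. Over all tested TAPEs 67.1% had a negative change, with a median of -0.17, and after centring the 11 numbered 8 negative and 3 positive.

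Libraries from the other regions, which entered the filter on low values but not the striatal contrast, gave the same direction for most. Among the 15 rising TAPEs the fitted KCl effect was positive for 13 in cortex (86.7%, or 93.3% without the cortical library with the striatal label) and 12 in hippocampus (80%), against 40.5% and 34.1% of all tested TAPEs (45.7% in cortex without that library). Among the 8 falling TAPEs it was negative for 7 in cortex (87.5%, also without that library) and 8 in hippocampus (100%), against 59.5% and 65.9% (54.3% in cortex without that library). On the log2(CPKM + 0.05) scale the sizes were smaller, with medians of 0.56 in cortex, also without that library, and 0.37 in hippocampus for the rising TAPEs. That scale shrinks changes at low levels, and the TAPEs were chosen for their striatal change, so sizes cannot be compared between regions. At the first Fos enhancer, for example, vehicle means were 0.0107 CPKM in cortex and 0.00642 in hippocampus, below the added 0.05. Only the Mn1 TAPE (2.51 ± 0.28, adjusted p = 9.08e-05) and the third Fos enhancer (1.71 ± 0.28, adjusted p = 0.00676) were also called in cortex (0.321% of tested TAPEs were called higher there), and none in hippocampus (0.0535% were). Without the cortical library with the striatal label the same pair was called in cortex, with 2.54 ± 0.31 (adjusted p = 0.000294) and 1.80 ± 0.31 (adjusted p = 0.0124).

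No TAPE called in striatum passed the test of a difference between regions. The contrast of the striatal effect with the mean of the other regions called 1 of 1870 TAPEs (0.0535%), which was not among the 23, and 133 had an unadjusted p below 0.05. Of the 15 rising TAPEs, 9 had such a p with the higher effect in striatum (3.26% of all tested did). Nearest to the threshold were the Cflar TAPE, with a contrast of 1.55 (adjusted p = 0.108) and effects of -0.26 ± 0.29 in cortex and -0.35 ± 0.25 in hippocampus, and the Nr4a1 enhancer, with 1.38 (adjusted p = 0.136) and 0.96 ± 0.29 and 0.21 ± 0.28. Choosing TAPEs for their striatal change tilts this contrast toward striatum, so it was not read further. Without the cortical library with the striatal label the contrasts were 1.59 at the Cflar TAPE and 1.47 at the Nr4a1 enhancer (adjusted p = 0.0921 for both), with effects in cortex of -0.33 ± 0.34 and 0.78 ± 0.30.

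**Figure D4:**
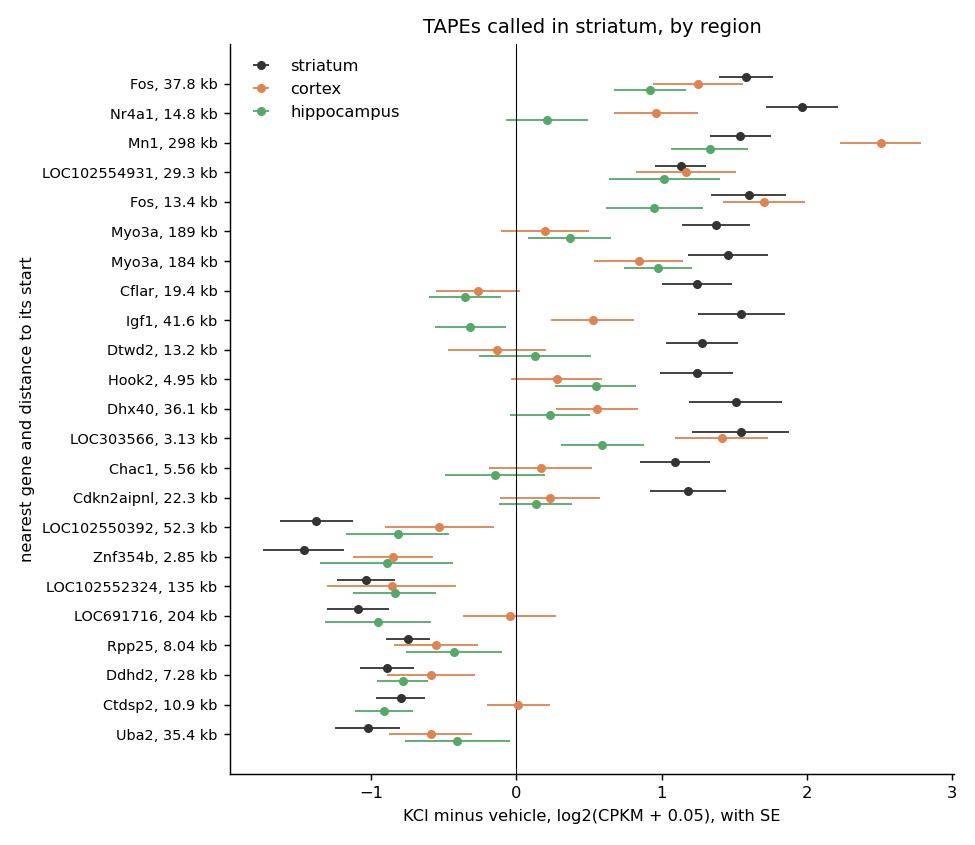
Fitted KCl effects (horizontal axis, log2(CPKM + 0.05), KCl minus vehicle, bars for SE) in striatum, cortex and hippocampus for the 23 TAPEs called in striatum, named by nearest gene and distance. Striatal effects all exceed 1 among the rising TAPEs, while those of cortex and hippocampus spread from below 0 to 2.51, the highest at the Mn1 TAPE in cortex.

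The TAPE that did differ, chr4:77413446-77416130, 67.8 kb upstream of Ezh2, a histone methyltransferase gene, did not respond detectably in striatum. Striatal vehicle libraries held 0.361, 0.42, 0.308 and 0.605 CPKM and KCl libraries 0.331, 0.343 and 0.435, which overlap (log2 change -0.14 ± 0.22, adjusted p = 0.793). In cortex it went from 0.332 ± 0.0359 to 1.73 ± 0.181 CPKM (SD, n = 3 each) and in hippocampus from 0.145 ± 0.0231 to 0.715 ± 0.187 (SD, n = 3 each). The difference of effects was -2.23 ± 0.26 (adjusted p = 2.57e-06), and -2.23 ± 0.26 (adjusted p = 7.32e-06) without the cortical library with the striatal label.

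The deposited table holds no gene levels, only the correlation of each gene with each paired TAPE. Because the TAPE profiles are known, the standardised profile of a gene over the 7 striatal libraries could be solved from these correlations for 16063 of 17715 symbols (90.67%), which gives the order of the libraries but no level and no fold change. By this measure 1256 genes had all KCl libraries above all vehicle libraries (7.82%) and 3118 all below (19.4%). With 35 arrangements the smallest exact permutation p is 0.0286, and no gene passed adjustment over all solved genes (smallest adjusted p = 0.152), so genes are described by order alone. These profiles follow the reads of the whole library and cannot be centred. Among 8 solved housekeeping genes, Gapdh, Actb and Ywhaz were higher and Tbp lower in every KCl library, and the part of library composition in the gene counts was not tested.

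Activity genes separated the treatments almost without exception. Of 25 transcription factor genes on the activity list, 24 had all KCl libraries above all vehicle libraries and none below. Over all solved genes 7.82% were above and 19.4% below. The 24 included the AP-1 subunits Fos, Fosb, Fosl2, Jun and Junb, the zinc finger factors Egr1 to Egr4, the nuclear receptors Nr4a1, Nr4a2 and Nr4a3, and Npas4, a neuron-specific factor. Klf2 alone overlapped (standardised difference -0.47). Fos stood between -0.87 and -0.72 SD in vehicle libraries and between 1.04 and 1.10 SD in KCl libraries, so the 2 groups were each tight and far apart. Of 24 solved effector genes, 21 were higher, among them Arc, a synaptic plasticity protein, Bdnf, a neurotrophin, Homer1, a postsynaptic scaffold, and the phosphatase genes Dusp1, Dusp4, Dusp5, Dusp6 and Dusp14. Nptx2, Inhba and Nrn1 overlapped.

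Genes of medium spiny neurons split between directions. Of 19 solved, 5 were higher in all KCl libraries and 5 lower, against 7.82% and 19.4% of all genes. The higher ones included Drd1, the D1 dopamine receptor, and the neuropeptide precursors Penk, Pdyn and Tac1. Drd1, Pdyn and Tac1 belong to the D1 class, whereas Penk, which encodes the precursor of enkephalin, belongs to the D2 class. Whether the directions followed the classes was not tested. Lower were Drd2, the D2 dopamine receptor, Gpr6, an orphan receptor of D2-class neurons, Rgs9, a brake on G protein signalling, and the phosphodiesterases Pde10a and Pde1b. Drd1 lay between -1.02 and -0.51 SD in vehicle and 0.93 and 1.12 SD in KCl, and Drd2 between 0.20 and 1.55 SD in vehicle and -1.27 and -0.58 SD in KCl. Adora2a and Ppp1r1b, which mark the D2 class and both classes, overlapped. In bulk samples a change in the number of cells of a class and a change in RNA per cell cannot be told apart.

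Transcription factors of the striatal lineage also split between directions. Of 18 solved lineage factors, 6 were lower in all KCl libraries (Ebf1, Meis1, Meis2, Foxp1, Foxp2 and Rarb, the retinoic acid receptor beta gene), 3 were higher (Dlx5 and Sp9 among them) and 9 overlapped, against 19.4% lower and 7.82% higher over all solved genes. The median standardised difference was 0.75 for these factors and -0.28 for the medium spiny neuron genes, against -0.54 over all solved genes. Gad1, Gad2 and the vesicular GABA transporter gene Slc32a1 were higher in all KCl libraries. Markers of other cells showed little separation by treatment: none of 9 cortical excitatory, 8 astrocyte, 8 oligodendrocyte lineage, 5 microglia or 3 progenitor and vascular markers was without overlap, and of 8 interneuron markers Nkx2-1 was higher and Pvalb lower. Some could not have separated: Emx1, Fezf2, Cx3cr1 and Tmem119 were tied at their lowest value in all striatal libraries but a single vehicle one. Neurod1, Csf1r and Ptprc were tied at their lowest value in most libraries. These counts therefore do not show that other cells were unchanged. For Eomes, Aif1 and Cldn5 the striatal correlations were undefined.

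**Figure D5:**
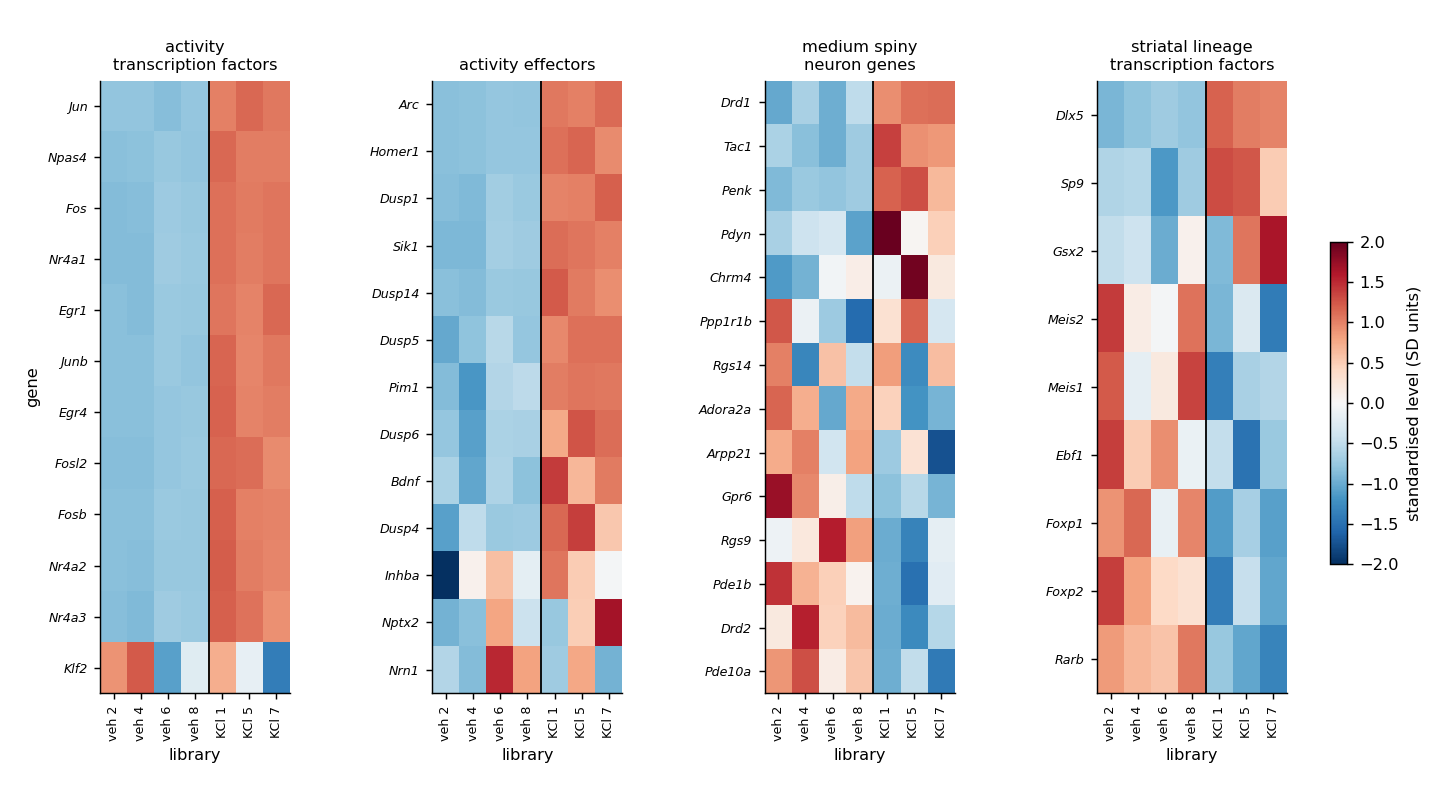
Standardised level (colour, SD units over the 7 striatal libraries) of each solved gene named in the text (vertical axis) in each library (horizontal axis, vehicle left of the black line, KCl right of it) for the lists of activity factors, activity effectors, medium spiny neuron genes and striatal lineage factors, ordered by the difference between treatments. The activity lists are of 1 pattern with few exceptions, whereas Drd1, Tac1, Penk and Pdyn at the top of the third panel contrast with Pde10a and Drd2 at its foot.

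Promoter sequence was compared as a feature that the gene profiles did not use. The CRE, the site bound by CREB, was searched on both strands from 250 bases before to 50 after each start (RefSeq, GRCr8), in its full form TGACGTCA and as the half-site TGACG, which the full form contains. The full CRE was in 1.91% of all 27457 promoters. Of the promoters of genes without overlap, it was in 7.96% of 967 for higher genes and 2.46% of 2443 for lower genes, and in 2.31% of 8528 for genes that overlapped. The half-site was in 46.2%, 28.9% and 26.9% of the same groups. The AP-1 site TGANTCA was in 5.07%, 3.27% and 5.98%, so it was not more frequent in the higher genes than in those that overlapped. Of 17 promoters of activity transcription factors that matched by symbol, 3 held the full CRE and 11 the half-site, and of 23 promoters of effectors 5 and 12. Among 15 promoters of medium spiny neuron genes the counts were 1 and 3.

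The promoter of Nr4a1, whose enhancer showed the largest fitted log2 change, held 4 half-sites and no full CRE (chr7:134259888-134260187, GRCr8, plus strand). It is shown as an example, with the half-sites in capitals. Fos is not in the promoter table used here. A match of letters is a description and says nothing of whether a factor was bound.
Nr4a1 promoter: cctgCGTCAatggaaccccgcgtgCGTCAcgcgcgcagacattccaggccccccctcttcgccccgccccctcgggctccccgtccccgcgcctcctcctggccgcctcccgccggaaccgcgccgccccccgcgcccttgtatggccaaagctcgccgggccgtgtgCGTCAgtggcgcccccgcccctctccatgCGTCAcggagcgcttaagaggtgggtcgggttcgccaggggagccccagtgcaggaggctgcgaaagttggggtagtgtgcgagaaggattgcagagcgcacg

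Within 100 kb of the activity transcription factors lay 19 tested TAPEs of 12 genes. Of these, 4 were called higher (0.802% of all tested) and none lower, 7 had all KCl libraries above vehicle (3.32% of all tested) and none below (9.73%), and the median change was 0.69 against -0.17 over all tested TAPEs. Within 250 kb there were 35 tested TAPEs, still with 4 called, and their median change was 0.06. The 7 comprised the 3 Fos TAPEs, 2 at Nr4a1, that at Junb and 1 located 99.0 kb upstream of Nr4a3 (0.91 ± 0.34, adjusted p = 0.226). Most of the 19 lay at Fos, Nr4a1, Fosb and Junb. At the remaining genes all TAPEs overlapped between treatments. Those of Egr1 (-0.68), Nr4a2 (-0.53) and Klf2 (-0.31) had negative changes, and the rest ran from -0.16 to 0.73. Egr1 and Nr4a2 were nevertheless higher as genes in every KCl library. The 4 tested TAPEs upstream of Fosb had changes between 0.22 and 0.86 and none passed the test. At the one that holds the study's Fosb enhancer guides, 10.3 kb upstream, KCl replicate 1 was at 0.58 CPKM and the other KCl libraries were at 0.197 and 0.17, next to a vehicle range of 0.129 to 0.18.

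Although nearly all effector genes were higher, few had a tested TAPE nearby. Of 6 within 100 kb, the Sik1 TAPE rose, and Dusp4 and Pim1 each had a TAPE with all KCl libraries below vehicle (-0.44, adjusted p = 0.348, and -0.41, adjusted p = 0.431) although both genes were higher. The TAPE 6.66 kb upstream of Arc had a change of 0.45 (adjusted p = 0.589). Around medium spiny neuron genes and striatal lineage factors only 2 TAPEs each were tested and none was called. They included that 3.08 kb upstream of Ppp1r1b, the gene of a dopamine-regulated phosphatase inhibitor (-0.32, adjusted p = 0.513), and that 8.35 kb upstream of Sp9 (-0.19, adjusted p = 0.789). The TAPE 8.42 kb upstream of Gsx2, a progenitor homeobox gene, had all KCl libraries below vehicle (-0.69, adjusted p = 0.247). For Drd1, Drd2, Penk and Tac1, no TAPE within 100 kb passed the filter on low values.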

How the data were processed

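Total RNA-seq of 19 libraries was deposited by the authors as RPKM-type values (CPKM, reads per kilobase scaled to library size) for 27538 TAPEs on 22 chromosomes (Rn6), paired with genes within 1 Mb, together with correlations per pair that the authors computed and that are used here as scores. The submitters' processing notes name Trim Galore 0.4.5 and SAMtools 1.9. Per the study's methods, directional libraries depleted of ribosomal RNA were aligned with STAR and counted over TAPEs in SeqMonk. CPKM times length gave whole reads for 100% of values (tolerance 0.01); 73% to 74.5% of read counts were even, and reads are not independent molecules.

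KCl was compared with vehicle by limma 3.58.1 (R 4.3.3; lmFit, eBayes with trend) on log2(CPKM + 0.05), two-sided, with Benjamini-Hochberg adjustment over 1870 TAPEs. The study tested counts, but the deposited unit is normalized. Voom on recovered reads was an alternative, as were other pseudocounts, filters, weights and leaving out each library. Gene profiles were solved by least squares in Python 3.11.15, and where profiles over 19 libraries also existed the call (higher, lower or overlapping) was the same for 100% of 10461 genes. Values closer than 1e-06 SD counted as overlapping. All called TAPEs were named, with values per library for the 8 rising ones of smallest p and all falling ones; that near Junb and the Fosb TAPE were added after values were seen. Members and gene lists were chosen with earlier results of these data known, so lists carry no test. The fit was checked on simulated data. Some members of the gene lists are counted but not reported here by name.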

Additional observations from a re-analysis of the deposited data

Results flagged for a closer look

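The TAPE at chr4:77413446-77416130 responded to KCl differently in striatum than in the mean of cortex and hippocampus, by -2.23 on the log2 scale (limma interaction contrast over all 19 libraries). It was called in each of the 7 fits that left out a striatal library.

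In the 4 vehicle libraries, 1 library stood far from the other 3 in 2 of the 29 vehicle groups checked. At chr10:90188422-90190566 the vehicle replicate 6 library had no read and its gap to the next was 0.857 of the group's range. At chr1:89998442-90001839 vehicle replicate 8, at 0.346 CPKM, was farthest with 0.832 of the range. Chance gives such a flag in about 1 in 20 groups.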

How the results depend on the processing

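No paired analysis was made, because no label pairs the striatal vehicle libraries (2, 4, 6 and 8) with the KCl libraries (1, 5 and 7). They share no replicate number, which does not show that the cultures were unpaired. None of the 23 called TAPEs changed direction under any of the 406 combinations of TAPE and alternative, of which 185 lost significance. Against 23 called TAPEs, there were 2 with no filter on low TAPEs, 63 with the filter on striatal libraries and 44 by voom scaled to reads in TAPEs (36 higher, 8 lower), and 0 to 8 with 1 library left out. By voom on total reads there were 34, and a filter of 0.1 CPKM gave 11 higher and 19 lower. After centring, 23 became 2 without a filter, 57 with the striatal filter and 7 to 20 with 1 library left out. The region contrast called 8 TAPEs at a pseudocount of 0.2 (7 with the higher effect in striatum), 3 without a filter and 3 against cortex alone. Leaving out a library moved the change in the TAPE share of reads, -0.0134 percentage points, to between -0.01445 and -0.01233, where no design of that size reaches p below 0.05. Genes with no overlap numbered 2069 lower from the profiles over 19 libraries, where fewer genes were solved (11000), and 3486 to 3958 lower and 1468 to 1798 higher with 1 library left out. Within 50 kb, 0 TAPEs near effector genes were called. The causes were not tested. Depth limits the low TAPEs: in the striatal libraries 1 read was worth 0.00955 to 0.0111 CPKM at the median length. The fits without cortex vehicle replicate 3 were added after seeing the data, and the region contrast still called 1 TAPE.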
